A study of Mus musculus with 4 samples.

Results

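Oxidative phosphorylation is carried out by 5 protein complexes of the inner mitochondrial membrane, and the transcripts of their subunits were examined here in single cells of the mouse heart. The genes were taken by name from the deposited gene list: symbols beginning with Nduf, Uqcr, Sdha to Sdhd, Cox4 to Cox8 and Atp5, without pseudogene names, together with the protein genes of the mitochondrial DNA, which carry the prefix mt-. This gave 105 of the 27998 genes. Of these, 82 are nuclear subunit genes, namely 38 for complex I, 4 for complex II, 8 for complex III, 17 for complex IV and 15 for complex V. Complexes were assigned by gene name, so Ndufa4 and Ndufa4l2 count under complex I throughout. A further 13 are mt- protein genes, and the remaining 10 are assembly factors and similarly named genes (Ndufaf1 to Ndufaf7, Cox7a2l, Atp5s and Atp5sl) that were kept apart. The nuclear subunit genes lie on 19 chromosomes.

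Complexes I and II pass electrons from NADH and succinate to ubiquinone, complex III hands them to cytochrome c, complex IV reduces oxygen with them, and complex V makes ATP from the proton gradient that complexes I, III and IV build. Complex II is encoded by nuclear genes only, whereas the others combine nuclear subunits with core subunits made inside the mitochondrion. The heart muscle relies on this pathway for most of its ATP, while endothelial cells are known to make much of theirs by glycolysis.

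The cells came from hearts of C57Bl6J mice at embryonic day 12 (E12), embryonic day 15 (E15), postnatal day 2 (P2) and 8 weeks of age (Adult). Each stage was 1 library made from pooled animals, with 37, 48, 21 and 6 animals in that order, and all 4 were sorted for CD31+/CD45- cells, which keeps endothelial cells and removes leukocytes. No group carried a transgene or a treatment. Tissue digestion was adapted to the stage, embryonic cells were pooled over several rounds, and all cells were frozen and thawed; dead cells were then removed from E12 and E15, whereas live P2 and Adult cells were sorted again. Stage and handling therefore cannot be told apart, and differences between stages have neither a replicate check nor a test.

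The libraries held 5732, 6062, 5884 and 4242 cells, with a median of 1241, 1013, 4531.5 and 1510 unique molecular identifiers (UMIs, each standing for 1 captured transcript) per cell at E12, E15, P2 and Adult. At E12 only barcodes with at least 452 UMIs were taken as cells. Pairs of libraries shared 25 to 60 barcodes. Levels are CPM, the counts per 1000000 UMIs summed over a class of cells, and since reads came from 3′ ends each transcript counts once whatever its length. The 95% intervals given in square brackets cover counting error only.

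Cells were classed by UMIs of a few genes. Endocardial cells, which line the chambers, had more UMIs of Npr3 and Tmem108 than of Fabp4, Cldn5 and Aplnr. Coronary cells had at least 2 UMIs of the latter genes and more than of the former, and non-endothelial cells had no UMI of Pecam1, Cdh5 or Egfl7. At E12, E15, P2 and Adult this gave 1716, 2115, 1082 and 75 endocardial cells, 113, 1254, 4596 and 4077 coronary cells, and 2995, 1867, 13 and 133 non-endothelial cells. The last class overlapped the others, by 596 and 545 endocardial cells at E12 and E15. It overlapped coronary cells by 7, 181, 11 and 101 cells at E12, E15, P2 and Adult, which is most of the class at P2 and in the adult. The share of cells without these UMIs moves with depth, so class sizes were not compared.

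Marker genes that the rule did not use were checked in each class. Endocardial markers summed to 1325, 1653, 1632 and 3003 CPM in endocardial cells at E12, E15, P2 and Adult, against 539, 510, 389 and 209 CPM in coronary cells. Coronary markers ran the other way, at 300, 768, 2836 and 7447 CPM in coronary cells against 169, 75.2, 183 and 335 CPM in endocardial cells. Endothelial markers in the non-endothelial class stood at 459, 1180, 433 and 1330 CPM, below the 1344, 2175, 3954 and 5810 CPM of endocardial cells but not near 0, so that class is named by its rule alone. Ribosomal protein transcripts moved with stage as well, from 318127, 297261 and 159922 CPM at E12, E15 and P2 to 116820 CPM in adult coronary cells.

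Promoters are printed for 4 nuclear subunit genes with contrasting levels. Atp5g1 (ENSMUSG00000006057), Atp5g2 (ENSMUSG00000062683) and Atp5g3 (ENSMUSG00000018770) encode the same mature c subunit, of which the rotor ring of complex V is built, and stood lower in both adult classes than at E12. Sdha (ENSMUSG00000021577), the flavoprotein of complex II that oxidises succinate, stood higher. Each sequence is the 250 bases before the annotated start in RefSeq for GRCm38.p6, read 5′ to 3′ on the minus strand, and capitals mark matches to the letters searched for the factor NRF1, which are GCGCA and GCGC with any 1 base between them.
Atp5g1, chr11:96075632-96075881: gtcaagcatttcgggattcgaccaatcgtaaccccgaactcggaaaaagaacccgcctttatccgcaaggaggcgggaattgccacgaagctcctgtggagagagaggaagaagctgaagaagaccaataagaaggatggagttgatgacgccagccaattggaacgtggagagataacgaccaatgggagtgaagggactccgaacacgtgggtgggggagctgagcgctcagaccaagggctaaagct
Atp5g2, chr15:102671048-102671297: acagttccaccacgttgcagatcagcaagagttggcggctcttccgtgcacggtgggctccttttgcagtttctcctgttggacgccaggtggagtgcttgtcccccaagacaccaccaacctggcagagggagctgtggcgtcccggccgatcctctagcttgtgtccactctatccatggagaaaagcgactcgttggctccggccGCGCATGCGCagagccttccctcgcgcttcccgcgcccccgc
Atp5g3, chr2:73911327-73911576: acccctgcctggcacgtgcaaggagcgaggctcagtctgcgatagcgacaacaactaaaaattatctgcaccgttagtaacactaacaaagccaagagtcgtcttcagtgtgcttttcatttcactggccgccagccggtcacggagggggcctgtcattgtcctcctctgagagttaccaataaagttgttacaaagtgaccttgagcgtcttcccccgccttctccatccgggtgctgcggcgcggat
Sdha, chr13:74350241-74350490: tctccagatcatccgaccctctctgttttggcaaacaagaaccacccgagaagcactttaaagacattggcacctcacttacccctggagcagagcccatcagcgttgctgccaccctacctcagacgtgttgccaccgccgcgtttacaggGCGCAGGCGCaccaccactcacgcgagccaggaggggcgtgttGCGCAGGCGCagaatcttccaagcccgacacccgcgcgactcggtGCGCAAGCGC

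The Atp5g2 promoter held 1 match, the Sdha promoter held 3, and the bases printed for Atp5g1 and Atp5g3 held none. A promoter was found in RefSeq for 66 of the 82 nuclear subunit genes, in 71 windows that also take in the first 50 bases after the start. In these longer windows Atp5g3 also held a match to the NRF1 letters. The NRF1 letters occurred on either strand in 18 of these windows (25.4%), against 4.60% of all 32851 promoter windows. CCGGAAG, searched for ETS factors, occurred in 22.5% against 8.86%, and AAGATGGC, searched for YY1, in 12.7% against 2.75%. No match overlapped one of another motif. Of the windows, 52.1% held at least 1 of these motifs, against 14.7% of all promoters. By complex, the NRF1 letters were in 6 of 16 windows of complex V and 1 of 12 of complex IV. These are matches of letters and say nothing of binding.

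Nuclear subunit transcripts made up a few percent of the UMIs in every class and stage, and their summed level stood lower in the adult than at E12 in both endothelial classes. In coronary cells the sum was 35024, 32732, 28717 and 26016 CPM at E12, E15, P2 and Adult. In endocardial cells it was 28633, 28649, 27218 and 24735 CPM. The coronary level was thus lower at each stage than at the one before, although with cells thinned to 500 UMIs the mean cell held 16.4 nuclear subunit UMIs at both E12 and E15, and the endocardial level was the same at E12 and E15. The ratio of Adult to E12 was 0.743 [0.727, 0.759] in coronary and 0.864 [0.840, 0.889] in endocardial cells. With mt-, ribosomal protein and haemoglobin genes left out of the total, the ratios were 0.578 and 0.702.

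The mt- protein genes, which are transcribed together from the mitochondrial DNA, moved the other way. Their sum was 25133, 22862, 35788 and 46697 CPM in coronary cells and 31285, 26091, 48782 and 43224 CPM in endocardial cells. Both classes stood lowest at E15 and well above both embryonic stages from P2 on. The ratio of Adult to E12 was 1.86 [1.81, 1.91] in coronary and 1.38 [1.35, 1.41] in endocardial cells, and stayed above 1 under the alternatives tried, from 1.44 to 2.04 and from 1.12 to 1.66.

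For each nuclear subunit UMI, coronary cells held 0.718, 0.698, 1.25 and 1.79 mt- UMIs at E12, E15, P2 and Adult. Endocardial cells held 1.09, 0.911, 1.79 and 1.75. This ratio does not depend on the total by which the levels were divided. It was higher in endocardial than coronary cells at E12, E15 and P2, and nearly equal in the adult. Barcodes taken as empty droplets at E12, with at most 50 UMIs each, held 3.35 [3.29, 3.41] mt- UMIs per nuclear subunit UMI, above every class of cells. The part of free or leaked RNA in the mt- levels was not tested.

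**Figure D1:**
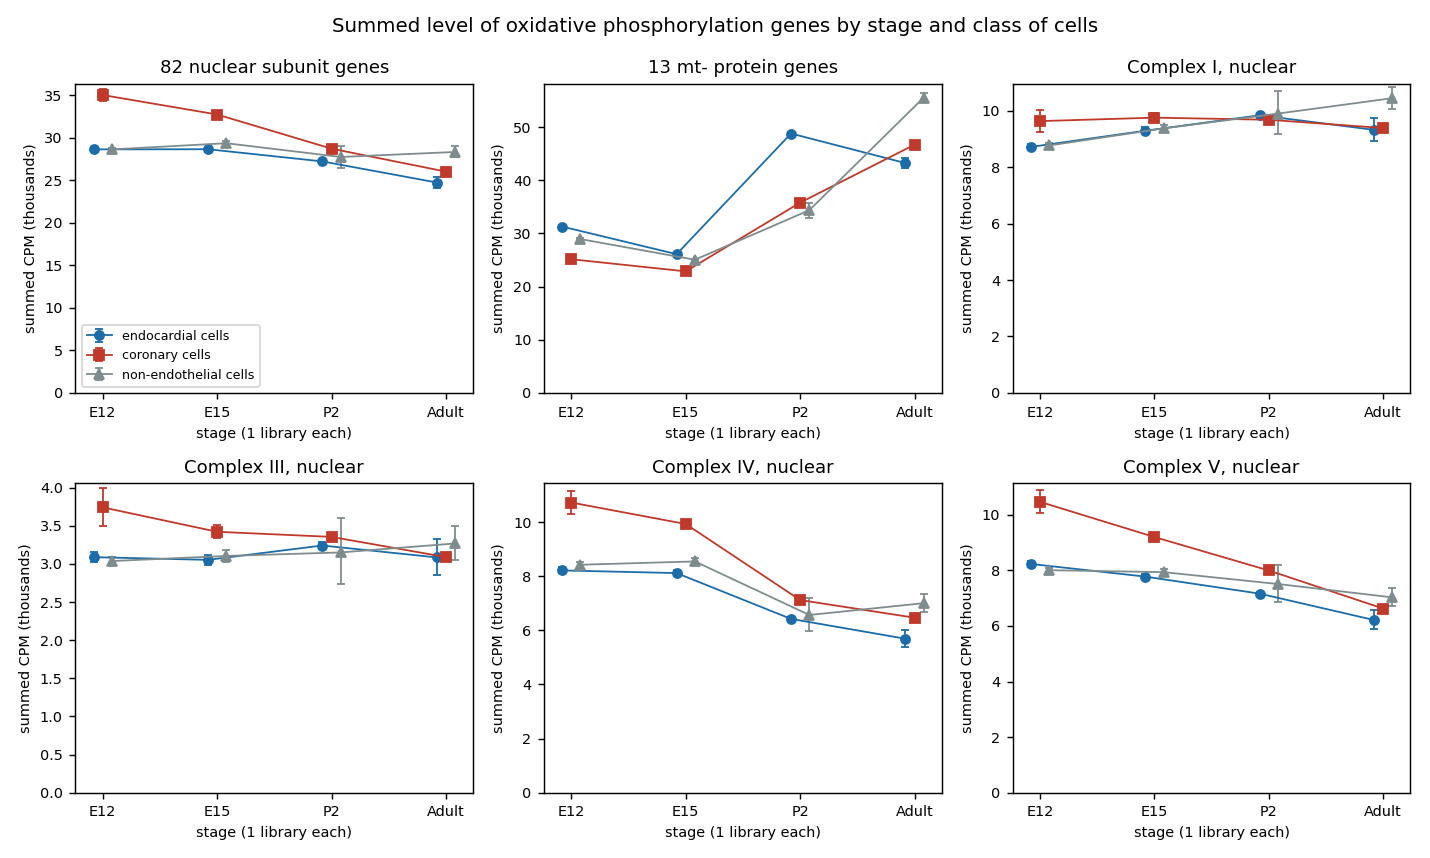
Summed level of the 82 nuclear subunit genes, the 13 mt- protein genes and the nuclear subunits of complexes I, III, IV and V, in CPM divided by 1000 (vertical axes, which differ between panels) at each stage (horizontal axis) for the 3 cell classes. Points are 1 library each, and bars are 95% Poisson intervals of the counts. Nuclear sums of coronary cells run from 35024 CPM at E12 to 26016 CPM in the adult, while their mt- sums run from 25133 to 46697 CPM.

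The complexes did not change in equal measure. In coronary cells, complex IV summed to 10727, 9933, 7121 and 6469 CPM and complex V to 10467, 9202, 7996 and 6626 CPM, with Adult to E12 ratios of 0.603 [0.580, 0.628] and 0.633 [0.608, 0.659]. Complex I, which oxidises NADH, was at 9632, 9754, 9680 and 9386 CPM, a ratio of 0.974 [0.935, 1.02] that was not distinguishable from 1 at this depth. That result depends on the total. Leaving mt-, ribosomal protein and haemoglobin genes out of it moves coronary Adult to E12 ratios by −0.36 on the log2 scale, which puts complex I below 1. Complex III lay between, at 3742, 3421, 3354 and 3089 CPM with a ratio of 0.826 [0.773, 0.883]. The drop from E12 to E15 in coronary complex IV did not hold with cells thinned to 500 UMIs, where that ratio was 1.02.

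Endocardial cells showed the same order. Complex IV summed to 8217, 8118, 6424 and 5690 CPM and complex V to 8232, 7777, 7164 and 6212 CPM, with Adult to E12 ratios of 0.693 [0.653, 0.734] and 0.755 [0.713, 0.798]. Complex III was at 3088, 3053, 3241 and 3085 CPM, a ratio of 0.999 [0.920, 1.08]. Complex I was at 8717, 9290, 9839 and 9321 CPM, a ratio of 1.07 [1.02, 1.12] that turned to 0.869 when mt-, ribosomal protein and haemoglobin genes were left out of the total. Complex II, the smallest, was highest at P2 in both classes, at 550 CPM in endocardial and 566 CPM in coronary cells against 411 and 423 CPM at E15.

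Taken as shares of the nuclear subunit UMIs, which no choice of total affects, complex I went from 27.5% at E12 to 36.1% in adult coronary cells. Complex IV went from 30.6% to 24.9% and complex V from 29.9% to 25.5%. In endocardial cells the share of complex I went from 30.4% to 37.7%, that of complex IV from 28.7% to 23.0% and that of complex V from 28.7% to 25.1%.

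Member by member, a gene was called higher or lower when its level differed past 1.5-fold with at least 50 UMIs in both groups together. In coronary cells 100 of the 105 members had enough UMIs for Adult against E12, and 19 were called higher and 26 lower. Of the 8616 genes tested there, 43.6% were called higher and 19.6% lower. The 95% interval of the ratio left out 1 for 17 of the higher and 25 of the lower members. The share over all genes includes genes with few UMIs, which pass the fold more easily through counting error, and the difference from the members was not tested. Adult coronary cells held 7188672 UMIs against 242947 at E12, so a gene high in the adult reached the minimum more easily. Endocardial totals ran the other way, at 208774 and 2473652 UMIs. The shares over all genes are thus no neutral reference, here or wherever the groups differ in total UMIs. In endocardial cells 93 members had enough UMIs, with 15 higher and 18 lower against a background of 29.3% and 28.9%. There the interval left out 1 for 13 of the higher and 14 of the lower members. With mt-, ribosomal protein and haemoglobin genes left out of the total, 9 members were called higher and 44 lower in coronary cells. In endocardial cells 8 were called higher and 32 lower. With median-of-ratios scaling 11 were called higher and 43 lower in coronary cells. The median log2 ratio over all genes moved down as well when those genes were left out, from 0.39 to 0.05 in coronary and from 0.03 to −0.27 in endocardial cells. With median-of-ratios scaling it was 0.06 in coronary cells. The shares of all genes called under these settings were not counted.

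The subunits have short transcripts. In the GENCODE vM21 annotation of mm10 the longest transcript had a median of 1003 bases for the nuclear subunit genes with enough coronary UMIs, against 3348.5 bases for all genes. Genes of at most 1000 bases had a median log2 ratio of Adult to E12 of −0.18 in coronary cells, against 0.45 for genes over 2000 and up to 4000 bases. The 38 nuclear subunit genes of at most 1000 bases stood at −0.24, and other genes of that length, ribosomal protein genes left out, stood at −0.07. In endocardial cells such other short genes stood at −0.20, against 0.17, 0.13 and −0.05 in the 3 classes of longer genes. Over all genes Spearman's rho between length and ratio was 0.08 in coronary and −0.03 in endocardial cells, as a description across genes, which are not independent. Among the nuclear subunit genes it was 0.01 and 0.14.

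The calls were spread over the complexes as follows. Over all genes tested the shares were 43.6% higher and 19.6% lower in coronary and 29.3% and 28.9% in endocardial cells. Differences between complexes, or from these shares, were not tested. In coronary cells none of 15 complex V genes was called higher and 8 were lower. For complex IV 1 of 13 was higher and 7 were lower, and for complex I 6 of 38 were higher and 4 lower. The higher complex IV gene was Cox4i2, with 2 UMIs at E12. Among the higher complex I genes, Ndufa4l2, Ndufa9 and Ndufv1 had 0, 6 and 8 UMIs at E12. These genes reached the minimum through the adult. Of the 362 adult Ndufa4l2 UMIs, 310 lay in 99 cells with mural markers, described below with the isoforms. In endocardial cells 7 of 37 complex I genes were higher and 1 lower, none of 11 complex IV genes was higher and 4 were lower, and 1 of 15 complex V genes was higher and 6 lower. The median log2 ratio in coronary cells was −0.08 for complex I, −0.40 for complex III, −0.74 for complex IV and −0.64 for complex V, beside 0.39 over all genes tested. In endocardial cells it was 0.17 for complex I, −0.54 for complex IV and −0.31 for complex V, beside 0.03 over all genes.

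In both classes 7 nuclear subunit genes were called higher and 13 lower in the adult than at E12, and none was called in opposite directions. Of all genes tested, 43.6% were called higher and 19.6% lower in coronary and 29.3% and 28.9% in endocardial cells. How often all genes were called alike in both classes was not counted, so this overlap is not read as particular to the members. The higher ones were Ndufa6, Ndufa8, Ndufb10, Ndufv1, Sdha, Uqcrb and Uqcrc2. The lower ones were Atp5d, Atp5e, Atp5g1, Atp5g2, Atp5g3, Atp5k, Cox6c, Cox7b, Cox7c, Ndufc1, Sdhd, Uqcr10 and Uqcrq. These genes were singled out after their values were seen. The E12 library enters both comparisons of a gene, so the classes share any property of that library.

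**Figure D2:**
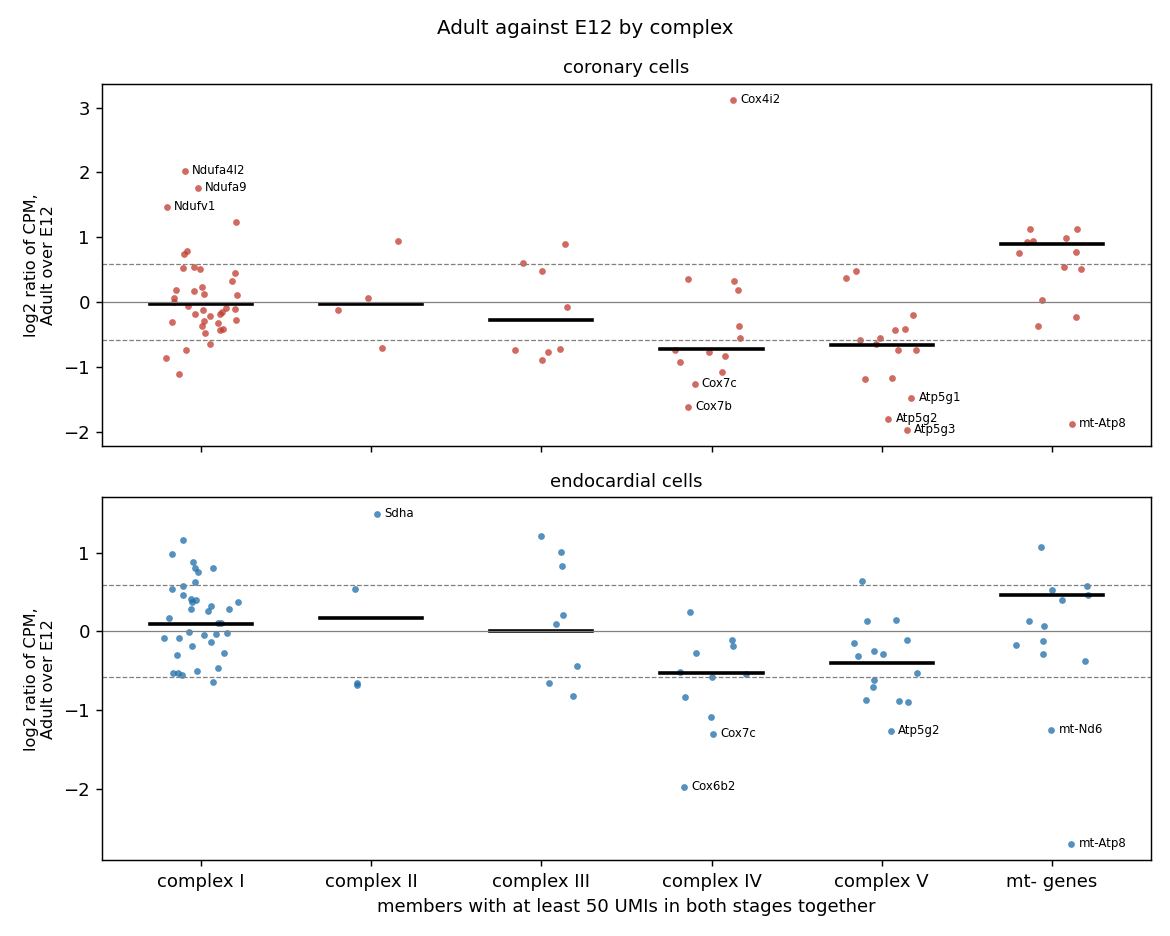
Log2 ratio of Adult to E12 for each member with enough UMIs (points), arranged by complex along the horizontal axis, in coronary cells (top) and endocardial cells (bottom). Black bars give the ratio of each complex's summed level, dashed lines mark 1.5-fold, and members far from 0 are named. Most complex IV and V points lie below 0 in both panels, and the coronary Ndufa4l2 point is a lower bound because that gene had no UMI at E12.

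The most abundant complex I members were accessory subunits. Ndufa4, once assigned to complex I and now placed in complex IV, was counted under complex I by its name in all sums, shares and counts. How these change with it in complex IV was not computed. Ndufa4 had the highest level of the group, at 692, 776, 999 and 862 CPM in endocardial and 856, 848, 882 and 820 CPM in coronary cells. Its coronary Adult to E12 ratio of 0.958 [0.834, 1.11] was not distinguishable from 1. Ndufa2 was at 671, 622, 446 and 426 CPM in coronary cells, with a ratio of 0.635 [0.542, 0.748], and Ndufa3 at 453, 654, 446 and 451 CPM.

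Some core subunits of complex I were higher in the adult and others were not. Ndufv1, the core subunit that binds the FMN cofactor, was at 36.4, 46.6, 86.7 and 71.8 CPM in endocardial and 32.9, 44.6, 103 and 90.8 CPM in coronary cells. Both classes stepped up between E15 and P2, and the Adult to E12 ratios were 1.97 and 2.76 [1.39, 6.42]. Ndufs7, a core iron-sulfur subunit, was at 111, 146, 179 and 249 CPM in endocardial cells, a ratio of 2.24 [1.63, 3.02], and at 148, 160, 176 and 212 CPM in coronary cells, where it was not called. Other core subunits were not called in coronary cells, with Ndufs1 at 37.0 CPM at E12 and 34.5 CPM in the adult and Ndufs3 at 136 and 119 CPM. In endocardial cells Ndufs1 was called higher in the adult, a call that rests on 11 adult UMIs.

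Accessory subunits of complex I were mixed. Ndufa8 was at 129, 168, 322 and 225 CPM in endocardial and 226, 235, 367 and 389 CPM in coronary cells, and Ndufb10 at 146, 148, 197 and 244 CPM and 111, 179, 212 and 261 CPM. Ndufa9 was at 44.5, 48.6, 95.3 and 43.1 CPM in endocardial and 24.7, 64.9, 109 and 83.9 CPM in coronary cells. Its coronary Adult to E12 ratio of 3.40 [1.55, 9.29] rests on 6 UMIs at E12, whereas its endocardial levels at E12 and Adult were alike. Leaving mt-, ribosomal protein and haemoglobin genes out of the total took Ndufa6 to a log2 ratio of 0.37 in coronary and 0.33 in endocardial cells and Ndufa8 to 0.42 and 0.50, short of 1.5-fold.

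Complex II showed unequal subunits. Sdha, the catalytic flavoprotein, was at 54.6, 61.3, 147 and 153 CPM in endocardial and 61.7, 44.0, 127 and 119 CPM in coronary cells. Its level at P2 and Adult lay above both embryonic stages in both classes. The ratio of P2 to E15 was 2.40 [2.02, 2.88] in endocardial and 2.87 [2.28, 3.67] in coronary cells, and that of Adult to E12 was 2.81 [1.85, 4.15] and 1.93 [1.16, 3.46]. The coronary Adult to E12 log2 ratio for Sdha went from 0.95 to 0.58 with the smaller total and to 0.41 with thinned cells, just short of or below 1.5-fold.

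The iron-sulfur subunit Sdhb was at 136, 138, 173 and 86.2 CPM in endocardial and 181, 164, 215 and 166 CPM in coronary cells. In endocardial cells its Adult to P2 ratio was 0.497 [0.293, 0.791], resting on 18 adult UMIs. The membrane anchor Sdhd was at 107, 117, 120 and 67.1 CPM and 140, 124, 129 and 85.3 CPM, and the other anchor Sdhc at 82.5, 94.4, 109 and 120 CPM and 74.1, 90.5, 95.5 and 77.1 CPM. Sdha was thus the only complex II gene called higher in both classes, while Sdhd was called lower in both. The endocardial Sdhd call rests on 14 adult UMIs.

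Complex III members moved in both directions. Uqcrb, a small subunit, was at 297, 286, 681 and 685 CPM in endocardial and 399, 344, 760 and 745 CPM in coronary cells. It stepped up between E15 and P2 by ratios of 2.38 and 2.21 [2.03, 2.40], with little between the stages on either side. The core protein gene Uqcrc1 was at 112, 118, 253 and 225 CPM and 140, 146, 287 and 194 CPM, and Uqcrc2 at 83.3, 82.6, 145 and 148 CPM and 82.3, 98.8, 154 and 125 CPM. The endocardial Adult to E12 log2 ratio of Uqcrc2 went from 0.83 to −0.00085 with thinned cells.

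Other members of complex III were lower or changed little. Uqcr10, also a small subunit, was at 680, 596, 413 and 431 CPM in endocardial and 827, 762, 485 and 443 CPM in coronary cells, with Adult to E12 ratios of 0.634 and 0.536. Uqcrh, the hinge protein near cytochrome c, was at 780, 842, 690 and 575 CPM and 831, 856, 599 and 486 CPM. Uqcr11 stayed at 532 to 613 CPM in endocardial and 476 to 626 CPM in coronary cells. Uqcrfs1, the Rieske iron-sulfur protein, was at 130, 130, 142 and 139 CPM in endocardial and 198, 157, 170 and 119 CPM in coronary cells, where it was called lower in the adult.

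Complex IV held the most abundant nuclear members. Cox4i1, its largest nuclear subunit, was at 1180, 1313, 1235 and 1039 CPM in endocardial and 1375, 1603, 1330 and 1062 CPM in coronary cells, with a coronary Adult to E12 ratio of 0.773 [0.692, 0.865]. Cox7c was at 1225, 1189, 785 and 498 CPM and 1659, 1326, 825 and 687 CPM. The adult was below every earlier stage in both classes, with ratios of 0.407 [0.331, 0.495] and 0.414 [0.374, 0.460]. Cox6c was at 1289, 1270, 895 and 723 CPM and 1350, 1393, 916 and 809 CPM, and Cox7b at 499, 426, 270 and 235 CPM and 667, 545, 300 and 217 CPM. For both, the P2 and Adult levels lay below both embryonic levels, and the coronary Cox7b ratio of 0.325 [0.277, 0.385] was the lowest in its complex among the ubiquitous subunits.

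Cox6a1 and Cox5a of complex IV were not called in either class for Adult against E12, although Cox5a stood lower in the adult in both. Cox6a1 was at 532, 537, 597 and 632 CPM in endocardial and 700, 757, 722 and 874 CPM in coronary cells. Cox5a was higher in coronary than endocardial cells at every stage, at 498, 397, 391 and 340 CPM against 262, 247, 260 and 216 CPM, and passed 1.5-fold at all 4. The intervals of its ratio were [1.56, 2.32], [1.44, 1.79], [1.42, 1.60] and [1.18, 2.17].

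**Figure D3:**
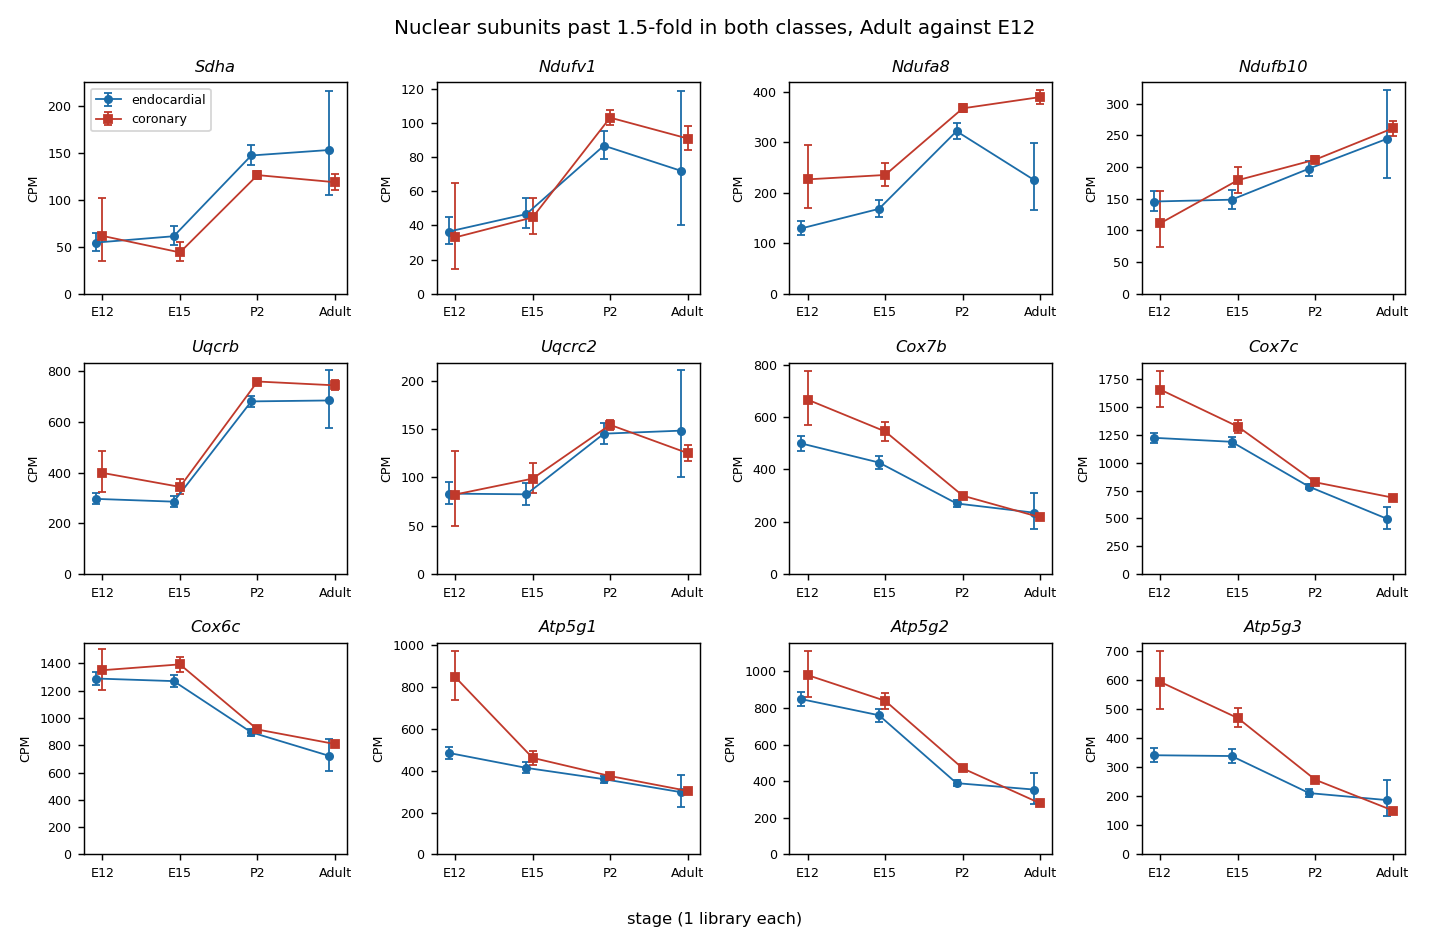
Level in CPM (vertical axes, which differ between panels) at each stage of 12 nuclear subunit genes called the same way in endocardial and coronary cells for Adult against E12, with 95% Poisson intervals. Sdha, Uqcrb and Ndufv1 step up between E15 and P2, and Cox7c, Cox7b and Atp5g1 to Atp5g3 stand lower at P2 and Adult than at E12.

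In coronary cells Atp5g3 and Atp5g2, of the c subunit of complex V, had the lowest Adult to E12 ratios of the nuclear members with enough UMIs, followed by Cox7b and Atp5g1. Atp5g1 was at 485, 413, 359 and 297 CPM in endocardial and 848, 461, 374 and 303 CPM in coronary cells. Atp5g2 was at 848, 760, 389 and 354 CPM and 980, 839, 470 and 279 CPM, and Atp5g3 at 341, 338, 211 and 187 CPM and 593, 468, 256 and 151 CPM. All 3 were lower at each later stage in both classes. The coronary Adult to E12 ratios were 0.358 [0.310, 0.415], 0.285 [0.249, 0.327] and 0.254 [0.214, 0.305], and the endocardial ones 0.613, 0.418 and 0.548.

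These genes for 1 mature protein did not keep fixed proportions. The Atp5g1 share of the 3 was 35.0%, 26.1%, 34.0% and 41.4% in coronary and 29.0%, 27.3%, 37.4% and 35.4% in endocardial cells. The Atp5g2 share was 40.5%, 47.4%, 42.7% and 38.0% and 50.7%, 50.3%, 40.6% and 42.3%. In coronary cells Atp5g1 was therefore the largest source of c subunit transcripts in the adult and Atp5g2 at the other stages, while in endocardial cells Atp5g2 led at every stage. The step from E12 to E15 in coronary Atp5g1, with a ratio of 0.544 [0.466, 0.638], was the lowest of all members between those stages.

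The other complex V subunits did not move together. Atp5b, the catalytic β subunit, was at 370, 368, 569 and 575 CPM in endocardial and 473, 532, 847 and 657 CPM in coronary cells, and Atp5a1, the α subunit, at 272, 245, 345 and 297 CPM and 325, 278, 395 and 282 CPM. Both were highest at P2 in coronary cells. Atp5c1, the γ subunit, was called lower there in the adult, at 465 CPM at E12 and 279 CPM in the adult. The ε subunit Atp5e was at 1144, 988, 715 and 613 CPM and 1202, 1114, 729 and 526 CPM, with a coronary Adult to E12 ratio of 0.437 [0.388, 0.494]. Atp5k was at 635, 496, 288 and 345 CPM and 864, 682, 353 and 385 CPM. Atp5j, coupling factor 6, was at 741, 769, 855 and 819 CPM and 897, 935, 931 and 1155 CPM, and with it the levels did not go down. Atp5l was at 721, 772, 868 and 666 CPM and 971, 867, 868 and 663 CPM.

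Between neighbouring stages, calls of members were fewest from E12 to E15. In coronary cells 3 were higher and 2 lower of 91, beside 20.2% and 10.1% of all genes tested, and in endocardial cells 1 was higher and 1 lower, beside 9.22% and 8.83%. From E15 to P2, 16 were higher and 15 lower of 103 in coronary cells, beside 35.9% and 9.11% of all genes, and 18 higher and 10 lower of 99 in endocardial cells, beside 29.6% and 9.66%. Depth per cell also moved there, from a median of 1013 to 4531.5 UMIs, and its part was not tested. From P2 to Adult, 12 were higher and 7 lower of 103 in coronary cells, beside 18.9% and 21.0%, and 2 higher and 9 lower of 98 in endocardial cells, beside 18.7% and 24.9%.

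Among the mt- genes, mt-Atp6, a subunit of the complex V proton channel, had the highest adult level. It was at 5860, 4551, 12149 and 12348 CPM in endocardial and 5022, 4227, 9341 and 10955 CPM in coronary cells. The Adult to E12 ratios were 2.11 and 2.18 [2.06, 2.31]. mt-Atp8 went the other way, at 465, 338, 60.6 and 71.8 CPM and 383, 349, 50.8 and 104 CPM. Its P2 to E15 ratios of 0.179 and 0.146 and its endocardial Adult to E12 ratio of 0.154 [0.0861, 0.256] were each the lowest of the members in their comparison. The coding sequences of mt-Atp8 and mt-Atp6 overlap on 1 transcript, as do those of mt-Nd4l and mt-Nd4, so how reads were shared between the genes of each pair is uncertain.

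The complex IV genes of the mitochondrial DNA make its catalytic core. mt-Co1 was at 5601, 5527, 9308 and 6136 CPM in endocardial and 3828, 4321, 5397 and 5585 CPM in coronary cells. mt-Co2 was at 2249, 1897, 3999 and 3094 CPM and 1992, 1664, 2887 and 3811 CPM, and mt-Co3 at 5974, 5462, 9921 and 7889 CPM and 4334, 4705, 6838 and 9448 CPM. Each peaked at P2 in endocardial cells and in the adult in coronary cells. mt-Cytb, the cytochrome b of complex III, was at 3787, 2989, 5404 and 5623 CPM and 2939, 2700, 4109 and 5826 CPM, highest in the adult in both.

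The complex I genes of the mitochondrial DNA differed widely in level. mt-Nd1 was at 3310, 2247, 3898 and 3454 CPM in endocardial and 3342, 2418, 4110 and 5688 CPM in coronary cells, and mt-Nd4 at 2125, 1573, 2680 and 3056 CPM and 1704, 1315, 2009 and 3239 CPM. mt-Nd2 was at 984, 808, 717 and 762 CPM and 819, 590, 578 and 1161 CPM. mt-Nd3, mt-Nd4l and mt-Nd5 stayed between 114 and 374 CPM in both classes. mt-Nd6, the protein gene encoded on the other strand, was at 57.0, 51.9, 16.6 and 23.9 CPM and 20.6, 38.7, 9.30 and 15.9 CPM, with P2 to E15 ratios of 0.320 [0.240, 0.424] and 0.240 [0.182, 0.322]. Whether the counting used strand is not given in the sources used here, and antisense reads of other mt- transcripts cannot be told apart from mt-Nd6 without it.

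From P2 to Adult all 13 mt- genes had ratios above 1 in coronary cells, 7 of them past 1.5-fold, and the ratio of the sum was 1.30. In endocardial cells the ratio of the sum was 0.886 [0.868, 0.905]. That drop hardly held with thinned cells, where the mean endocardial cell had 27.6 mt- UMIs at P2 and 27.3 in the adult. The summed complex I mt- genes showed the gap between classes most clearly in the adult, at 10969 CPM in coronary against 8061 CPM in endocardial cells, with the ratio of mt-Nd1 at 1.65 [1.53, 1.78] and that of mt-Nd3 at 1.73 [1.29, 2.38]. The endocardial mt- complex I ratio of Adult to E12, 1.10 [1.04, 1.15], turned to 0.892 with the smaller total.

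**Figure D4:**
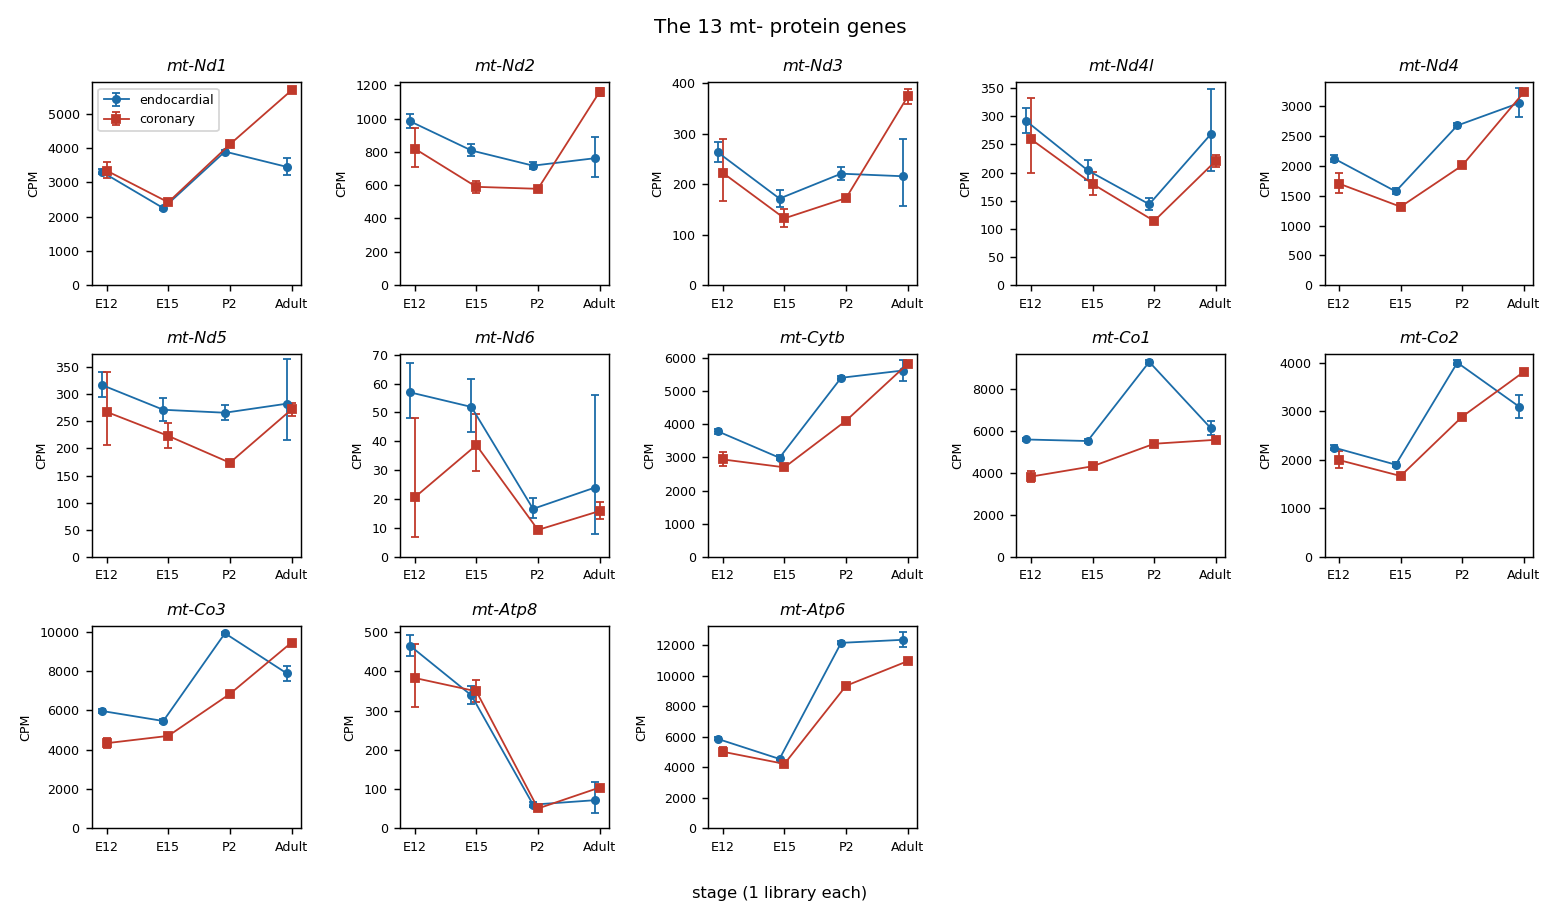
Level in CPM (vertical axes, which differ between panels) of the 13 mt- protein genes at each stage in endocardial and coronary cells, with 95% Poisson intervals. mt-Atp6 in coronary cells goes from 5022 CPM at E12 to 10955 CPM in the adult, while mt-Atp8 goes from 383 to 104 CPM.

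Within a stage, nuclear subunit levels were higher in coronary than endocardial cells. The ratio of the sums was 1.22 [1.20, 1.25], 1.14 [1.13, 1.16], 1.06 [1.05, 1.06] and 1.05 [1.02, 1.08] at E12, E15, P2 and Adult. It was 1.31, 1.22, 1.11 and 1.14 for complex IV and 1.27, 1.18, 1.12 and 1.07 for complex V, but 1.10, 1.05, 0.984 and 1.01 for complex I. With thinned cells the ratio of all nuclear subunits was 1.15 at E12 and 1.16 at E15, so its order between these stages did not hold. At E12, 61 of the 75 nuclear genes with enough UMIs lay above 1, and 44 of 77 did in the adult. Of all members with enough UMIs, 9 of 92 were called higher and 3 lower at E12, beside 11.7% and 27.9% of all genes. At E15 there were 3 and 2 of 98, beside 11.1% and 20.7%, at P2 6 and 3 of 103, beside 16.1% and 19.4%, and in the adult 11 and 5 of 99, beside 25.8% and 22.6%.

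At E12 the members farthest above 1 after Cox5a were Ndufa8, at 226 against 129 CPM with a ratio of 1.75 [1.29, 2.34], and Atp5g1, at 848 against 485 CPM with a ratio of 1.75 [1.50, 2.03]. In the adult Sdhc was at 77.1 CPM in coronary against 120 CPM in endocardial cells, the latter from 25 UMIs. The ratio of 0.644 [0.431, 1.00] was not distinguishable from 1. Of the 5 members called lower there, none had an interval below 1. The mt- sums were lower in coronary cells at E12, E15 and P2, with ratios of 0.803, 0.876 and 0.734. At P2 mt-Co1 was at 5397 against 9308 CPM, a ratio of 0.580 [0.574, 0.586]. The adult mt- ratio of 1.08 turned to 0.970 with thinned cells and to 0.965 when cells were averaged one by one. Erythroid transcripts differed between the classes as well, at 564 CPM in coronary and 1898 CPM in endocardial cells at E12 and 1409 and 86.3 CPM at E15, and their part in these ratios was not tested.

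The non-endothelial class had the highest erythroid level at E12 and E15 (11610 and 2676 CPM) and the highest mural level at every stage. Its fibroblast or cushion mesenchyme markers were at 3099, 4558, 16438 and 10635 CPM at E12, E15, P2 and Adult, above its mural markers. Immune markers there were at 2322 CPM in the adult. The class was close to endothelial cells in its nuclear subunit sum. Its level was 28626, 29356, 27740 and 28327 CPM, and the ratio to endothelial cells was 0.968, 0.965, 0.975 and 1.09, of which that at P2 rests on 13 cells. Of the members, 2 were called higher and none lower of 97 at E12, beside 13% and 10.3% of all genes. At E15 there were 3 and 1 of 99, beside 8.83% and 8.23%, and in the adult 10 and 6 of 101, beside 17.5% and 29.0%. Cox4i2 was called higher at each of these.

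Paired isoforms set the cell classes apart more than the sums did. Ndufa4l2 and Cox4i2 are the hypoxia-responsive partners of Ndufa4 and Cox4i1, and both are known from pericytes and vascular smooth muscle. In non-endothelial cells the Cox4i2 share of the Cox4 pair was 3.80%, 4.03%, 19.8% and 32.4%, and the Ndufa4l2 share of its pair was 1.04%, 6.65%, 65.8% and 52.1%. At P2 11 of these 13 cells, and in the adult 101 of 133, were also classed as coronary and count in the coronary shares too. The endothelial cells set beside them below exclude such cells. In adult non-endothelial cells Cox4i2 stood at 443 CPM against 58.5 CPM in endothelial cells, and Ndufa4l2 at 661 against 33.8 CPM, with intervals of the ratio of [6.11, 9.34] and [16.0, 23.9]. The summed mural markers in that class went from 886 and 425 CPM at E12 and E15 to 2747 CPM at P2 and 5963 CPM in the adult. Fibroblast or cushion mesenchyme markers in that class stood above these at each stage.

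In coronary cells the Cox4i2 share was 0.595%, 0.810%, 0.811% and 6.30% [5.78, 6.85], and its level 8.23, 13.1, 10.9 and 71.4 CPM. The adult stood apart from the earlier stages, 6.57 [5.64, 7.66] times the P2 level. The E12 level of Cox4i2 rests on 2 UMIs. The Ndufa4l2 share was 0 of 208 UMIs at E12, which allows a share of up to 1.44%, then 1.59%, 1.66% and 5.78%. Mural markers in coronary cells also stood highest in the adult, at 78.2, 54.2, 42.7 and 421 CPM, with 5 of 5 detected apart from Cspg4 at E12. From E12 to P2 these markers went down. The E12 isoform shares rest on too few UMIs to be set beside that course, and the part of mural cells was not tested.

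The values of both isoforms were split by mural marker UMIs, an alternative chosen after seeing the data. The 99 of 4077 adult coronary cells with at least 2 mural UMIs held 310 of 362 Ndufa4l2 UMIs (85.6%) and 204 of 513 Cox4i2 UMIs (39.8%). The other adult coronary cells had 7.54 CPM of Ndufa4l2 and 44.8 CPM of Cox4i2. With such cells left out at the earlier stages too, Ndufa4l2 was at 12.2 CPM at E15 and 5.36 CPM at P2, and Cox4i2 at 8.80, 11.6 and 6.77 CPM at E12, E15 and P2. The adult coronary shares were then 0.903% for Ndufa4l2 and 4.05% for Cox4i2.

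In endocardial cells the level of Ndufa4l2 was highest at E15. Its share of the pair was 0.812% [0.444, 1.36], 5.71% [4.74, 6.81], 1.86% and 1.64%, and its level 5.66, 47.0, 18.9 and 14.4 CPM. E15 stood above the stages on either side, with an E15 to E12 ratio of 8.31 [4.75, 15.7] and a P2 to E15 ratio of 0.402. The 44 endocardial cells with at least 2 mural UMIs at E15 held 7 of the 115 Ndufa4l2 UMIs, and the other cells were at 46.0 CPM. Cells below that limit can still hold mural transcripts at a median of 1003 UMIs. Mural markers in endocardial cells were at 300, 118, 11.2 and 23.9 CPM at E12, E15, P2 and Adult, and their part was not tested. A Ndufa4l2 UMI was seen in 0.816%, 4.63%, 6.47% and 4.0% of endocardial cells, and with cells thinned to 500 UMIs in 0.294%, 2.28%, 0.555% and none of them. E12 empty droplets had a Ndufa4l2 share of 3.45%, above the 0.812% of E12 endocardial cells. Non-endothelial cells at E15 were at 50.4 CPM, close to the endocardial level, and the 2 classes share 545 cells there.

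**Figure D5:**
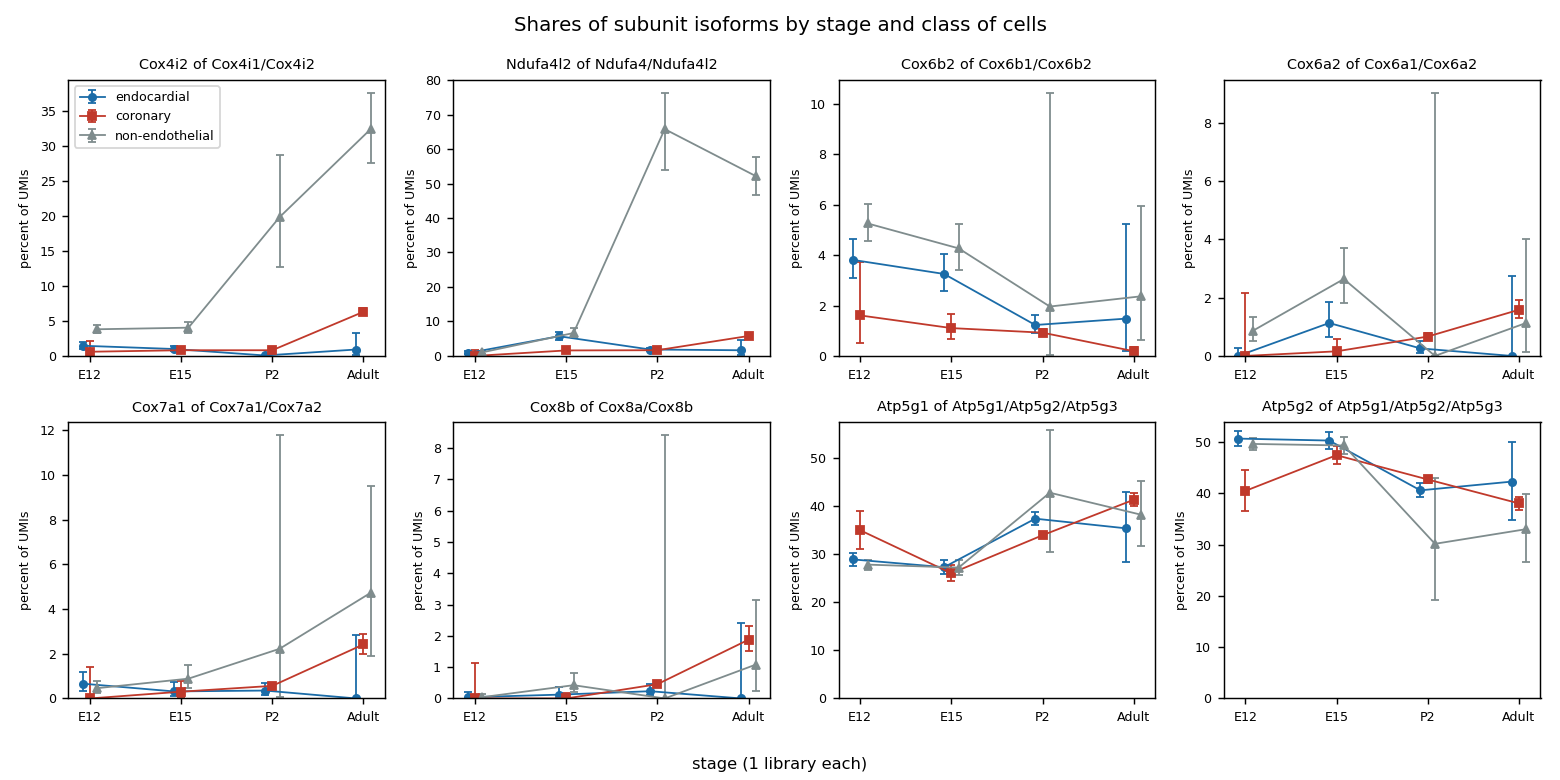
Percent of the UMIs of each isoform pair or trio that came from the named gene (vertical axes, which differ between panels) at each stage in the 3 cell classes, with exact 95% binomial intervals. The Ndufa4l2 share in endocardial cells stands at 5.71% at E15 and 0.812% at E12, and the adult coronary Cox4i2 share stands at 6.30%.

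The isoforms of heart and skeletal muscle were rare. In coronary cells Cox6a2 was at 0, 1.19, 4.82 and 14.1 CPM, Cox7a1 at 0, 2.38, 3.38 and 15.7 CPM, and Cox8b at 0, 0, 3.34 and 12.1 CPM. The Adult to P2 ratios were 2.91, 4.65 [3.46, 6.27] and 3.62. Cardiomyocyte markers were at 24.7, 48.8, 101 and 134 CPM in these cells, with 3, 9, 10 and 10 of 10 detected, and adult shares of the pairs were 1.58%, 2.42% and 1.88%. With cells of at least 2 cardiomyocyte marker UMIs left out, an alternative chosen after seeing the data, those shares were 1.18%, 1.94% and 1.54%. In endocardial cells cardiomyocyte markers were at 155, 137, 70.6 and 19.2 CPM, with 3 of 10 detected in the adult. The 3 isoforms had no UMI in adult endocardial cells, which allows shares of up to 2.27%, 2.33% and 1.97%. These limits lie close to the adult coronary shares, so this depth does not set the 2 classes apart.

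Cox6b2, the isoform best known from testis, was lower with stage, at 37.6, 31.5, 9.46 and 9.58 CPM in endocardial and 20.6, 12.5, 7.36 and 1.25 CPM in coronary cells. Its share of the pair with Cox6b1 was 3.81%, 3.25%, 1.23% and 1.48%, and 1.61%, 1.10%, 0.924% and 0.188%. The coronary Adult to P2 ratio was 0.170 [0.0765, 0.331], while the endocardial Adult to E12 ratio of 0.255 [0.0304, 0.947] rests on 2 adult UMIs. Cox6b2 was called higher in endocardial than coronary cells at E12 and E15. At E12 the coronary level rests on 5 UMIs, and the interval of that ratio did not leave out 1. Cox8c, another isoform, had no UMI in any class, and Cox7b2 was at or near 0 throughout.

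Of the 10 members that are not subunits, Cox7a2l, a factor for joining complexes III and IV, had the highest level, at 508, 621, 662 and 570 CPM in endocardial and 366, 510, 515 and 422 CPM in coronary cells. Ndufaf3, an assembly factor of complex I, was at 24.3, 26.2, 44.2 and 52.7 CPM and 24.7, 33.9, 40.8 and 60.1 CPM, higher in the adult than at E12 in both. Ndufaf4 was at 40.4, 38.8, 36.1 and 14.4 CPM and 45.3, 36.3, 36.9 and 41.3 CPM, and its low adult endocardial level rests on 3 UMIs. Ndufaf2 lay between 58.7 and 82.3 CPM, and Ndufaf1, Ndufaf5, Ndufaf6, Ndufaf7, Atp5s and Atp5sl lay between 4.12 and 33.5 CPM in both classes.

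Genes around the pathway were read from lists for comparison. Of 39 assembly factors, a list that includes 8 of the members (Ndufaf1 to Ndufaf7 and Cox7a2l), 38 had enough UMIs in coronary cells, and 8 were called higher and 10 lower in the adult than at E12, with 4 higher and 9 lower of 22 in endocardial cells. Of all genes tested, 43.6% were called higher and 19.6% lower in coronary and 29.3% and 28.9% in endocardial cells, and these shares also apply to the lists that follow. Among electron carriers and transport partners, 2 of 13 were higher and 5 lower in each class, with Atpif1, Cycs, Slc25a3, Usmg5 and Vdac1 lower in both. Atpif1, the inhibitor of complex V, was at 915, 880, 641 and 345 CPM in endocardial and 943, 902, 626 and 244 CPM in coronary cells. Cycs, cytochrome c, was at 336, 268, 201 and 172 CPM and 630, 404, 316 and 257 CPM. Slc25a5, an ADP/ATP exchanger, was at 348, 281, 445 and 436 CPM and 556, 460, 986 and 467 CPM, and like Cycs was called higher in coronary than endocardial cells at E12, E15 and P2.

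Enzymes of the tricarboxylic acid cycle and the pyruvate dehydrogenase complex, which feed the chain, were called higher in 5 and lower in 3 of 17 cases in coronary cells and higher in 9 and lower in 2 of 17 in endocardial cells. Ogdh, a subunit of the 2-oxoglutarate dehydrogenase, was at 39.6, 38.8, 55.0 and 67.1 CPM in endocardial and 12.3, 43.5, 48.9 and 46.0 CPM in coronary cells. Pdha1, of pyruvate dehydrogenase, was at 45.7, 52.3, 77.6 and 110 CPM and 20.6, 36.3, 56.5 and 44.8 CPM. The coronary E12 levels of these genes rest on 3 UMIs of Ogdh and 5 of Pdha1, with Adult to E12 ratios of 3.73 [1.26, 18.2] and 2.18 [0.923, 6.75]. Cs, citrate synthase, and Pdhb were lower in both classes.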

How the data were processed

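Hearts of 4 stages were measured by 10x Genomics 3′ single-cell RNA-seq (version 2 chemistry), 1 library a stage. Per the submitters' processing notes the reads were processed with Cell Ranger 2.2 against mm10, and the authors deposited unnormalized UMI counts per gene and barcode. Cell Ranger drops reads that map to several genes, so members with near-identical pseudogene copies can be undercounted. The E12 table held 737280 barcodes, and a cutoff of 452 UMIs (10% of the 99% quantile of 3000 expected cells) kept 5732 cells with 88.7% of its UMIs. The other tables held called cells only.

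Counts were summed per class and stage and divided by the total (CPM) with Python 3.11.15, numpy 2.4.6, scipy 1.17.1 and pandas 2.3.3. Intervals were exact Poisson for levels, Clopper-Pearson for shares and conditional binomial for ratios, at 95%. With 1 library per stage no test was made. Genes were called past 1.5-fold with at least 50 UMIs in both groups together, and a 0 was set to a floor of 3 counts. A gene at 0 in 1 group was left out where this floor reversed its direction. The code was tested on simulated counts for Adult against E12. Of genes simulated without a change, the 1.5-fold rule called 27.3% in coronary and 23.3% in endocardial cells. It called 98% and 96% of genes raised 3-fold, and 78% and 86% of genes lowered 3-fold. For genes raised 1.8-fold it called 72% and 74%, and for genes lowered 1.8-fold 62% and 72%. Genes named were the isoform pairs, the 3 highest and 3 lowest ratios per contrast, the 3 highest levels per complex and the mt- genes. Others were singled out after their values were seen. Not every gene that this rule names is reported here. The members and all lists were chosen with earlier results of these data known. Doublets were kept, and removing cells with a Scrublet score above 0.15 (scanpy 1.11.5) was an alternative, as were other totals, scalings, cutoffs, class rules and thinned cells. Figures used matplotlib 3.10.9.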

Additional observations from a re-analysis of the deposited data

Results flagged for a closer look

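The summed level of the mt- protein genes was higher in the adult than at P2 in coronary cells, with a ratio of 1.30. In endocardial cells it was lower, with a ratio of 0.886, but this drop hardly held with thinned cells. The mean thinned endocardial cell had 27.6 mt- UMIs at P2 and 27.3 in the adult. In coronary cells these means were 20.0 and 26.5. With 1 library a stage the difference between the classes was not tested, and the adult endocardial value rests on 75 cells.

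E12 barcodes taken as empty droplets, which no comparison used, held 27276 CPM of nuclear subunit and 91386 CPM of mt- transcripts. The first is close to the 28633 CPM of E12 endocardial cells, and the second is above the 31285 CPM there.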

How the results depend on the processing

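No paired analysis was possible because each stage was 1 library and all libraries carry the same replicate number. Depth limits the adult endocardial class (75 cells), the E12 coronary class (113 cells) and the P2 non-endothelial class (13 cells). The cause of the changes listed here was not tested. Of the 45 coronary and 33 endocardial calls for Adult against E12, 33 to 45 and 19 to 33 were made in the same direction under each alternative.

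A fold of 2 left 8 members higher and 11 lower in coronary and 6 and 7 in endocardial cells. Adult to E12 ratios of the mt- and nuclear sums were as follows. Without mt-, ribosomal protein and haemoglobin genes in the total they were 1.44 (mt-) and 0.578 (nuclear) in coronary and 1.12 and 0.702 in endocardial cells, with 9 members higher and 44 lower and 8 higher and 32 lower. With median-of-ratios scaling they were 1.47 and 0.586, and 1.31 and 0.820, with 11 higher and 43 lower in coronary cells. Against E15, chosen after seeing the data, they were 2.04 and 0.795 in coronary and 1.66 (mt-) in endocardial cells, and Ndufaf6 turned to −0.53 on the log2 scale in coronary cells. A doubled E12 cutoff gave mt- ratios of 1.91 and 1.43, stricter class markers 2.02 and 1.31 with a nuclear coronary ratio of 0.715, and mean CPM per cell 1.64 (endocardial mt-) and 0.774 (coronary nuclear). Thinning gave 1.66 and 0.789 for the same. The total without mt- genes gave 0.760 for coronary nuclear genes. Upper limits on cells gave 1.50 for endocardial mt- genes, 1.49 with Scrublet, and requiring an endothelial UMI gave 1.35. The median over all genes moved by −0.36 in coronary and −0.30 in endocardial cells without mt-, ribosomal protein and haemoglobin genes. It moved by −0.34 in coronary cells with median-of-ratios scaling. The shares of all genes called under these settings were not counted.

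The nuclear ratio of coronary to endocardial cells at E12, E15 and P2 was 1.15, 1.16 and 1.06 with thinned cells, 1.18, 1.17 and 1.07 with mean CPM per cell, and 1.33, 1.23 and 1.12 with median-of-ratios scaling. With stricter markers it was 1.27 at E12 and 1.17 at E15. With the smaller total it was 1.16 (E15), 1.04 (P2) and 1.01 (adult), and without mt- genes 1.04 at P2. In depth bins, chosen after seeing the data, it was 1.13 (E15), 1.05 (P2) and 1.02 (adult, 1 of 3 bins). Upper limits gave 1.16 at E15, and 1.18 with Scrublet. The adult mt- ratio between these classes turned to 0.970 with thinning, 0.965 with mean CPM, 0.988 with upper limits and 0.989 with Scrublet, and that of mt- complex IV to 0.934, 0.972, 0.998 and 0.999.

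The nuclear ratio of non-endothelial to endothelial cells was 0.993 (thinned) and 0.984 (mean CPM) at E12. At E15 it was 0.979 with the smaller total and with median-of-ratios scaling, 0.943 with stricter markers and 0.951 with Scrublet. With median-of-ratios scaling it was 0.845 at P2 and 1.21 in the adult, where upper limits gave 1.14 and, with Scrublet, 1.15. mt- UMIs per nuclear UMI in coronary cells were 2.04 (adult) and 0.847 (E12) with thinning, 2.02 and 0.830 with mean CPM, and 0.691 at E12 with the doubled cutoff and 0.635 with stricter markers. That ratio in E12 non-endothelial cells turned to 0.967 with the doubled cutoff. The adult non-endothelial share of Cox4i2 was 25% with thinning and 11.1% without mural cells, and that of Ndufa4l2 was 25.2% without mural cells, 57.7% with upper limits and 57.9% with Scrublet.

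Other directions turned as follows. Thinning gave 1.02 for nuclear and 0.998 for mt- complex IV in coronary cells from E12 to E15, 0.922 for complex II of adult non-endothelial against endothelial cells, 0.17 on the log2 scale for Ndufaf3 there and −0.00085 for Uqcrc2 in endocardial cells, Adult against E12. The smaller total gave 0.869 for complex I and 0.892 for mt- complex I in endocardial cells, Adult against E12, and 0.913 and 0.916 for complexes I and III from E15 to P2. Median-of-ratios scaling gave 0.884 and 0.886 for these, 1.04 for complex I at P2 and 1.00 for mt- complex V at E15, both coronary against endocardial.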

Other observations

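Single cells of a class were compared after each was thinned to 500 UMIs. The median cell then held 14, 14, 13 and 12 nuclear subunit UMIs in endocardial and 16, 16, 14 and 13 in coronary cells at E12, E15, P2 and Adult. The variance of these counts was 1.11 to 1.97 times that of binomial sampling, apart from 4.52 in adult non-endothelial cells. For the mt- genes the medians were 16, 13, 23 and 22 and 13, 11, 17 and 22 UMIs, and the variance was 3.25 to 24.0 times that of sampling. Cells of a class thus differed far more in mt- than in nuclear subunit transcripts.

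Dividing cells, taken by at least 2 UMIs of cell cycle markers, had nuclear subunit levels 0.952 to 1.05 times those of other cells of their class and stage, and mt- levels 0.816 to 1.01 times.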
